A study of Drosophila melanogaster with 4 samples.

Results

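The Hox genes lab, pb, Dfd, Scr, Antp, Ubx, abd-A and Abd-B, given in their customary order from anterior to posterior, were looked up among the array probes that carry exactly 1 gene symbol in the platform annotation. Of these 8 genes, 4 had such a probe: pb, Dfd, Scr and Antp, with 5 probes among them (Antp had 2), out of 12236 genes with a probe of 1 symbol. They all belong to the Antennapedia complex, the cluster that patterns the head and anterior thorax. Labial (lab) and the 3 genes of the bithorax complex, Ubx, abd-A and Abd-B, had no probe of that kind and were not analysed here, so the posterior part of the series is not covered.

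Hox genes encode homeodomain transcription factors that give each body segment its identity, and in flies their order along the chromosome broadly follows the order of the segments they act in. In Drosophila, proboscipedia (pb) and Sex combs reduced (Scr) specify the mouthparts of the labial segment, Scr also the first thoracic segment, Deformed (Dfd) the mandibular and maxillary head segments, and Antennapedia (Antp) the thorax. In the complex pb lies ahead of Dfd, although its labial segment lies behind those of Dfd. Antp is best known for the transformation of antenna into leg when it is expressed in the head. Polycomb group proteins keep Hox genes silent where they are not used, and trithorax group proteins keep them active.

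RNA was recovered with an anti-GFP antibody (immunoprecipitation, IP) from larvae in which the GMR driver, active in the developing eye, expressed GFP-dASF/SF2, an SR-family splicing factor with a GFP tag, or GFP-NLS, GFP with a nuclear localisation signal, which served as the control. Each extract pooled the anterior ends of 600 larvae of the third instar, so an extract held RNA of the other tissues of that region beside that of the eye. Each of the 4 arrays carried a dASF/SF2 IP in 1 dye and a GFP-NLS IP in the other: dASF/SF2 was in Cy5 on 2 arrays (the Cy5 arrays) and in Cy3 on 2 (the Cy3 arrays), with replicates 1 and 2 in each orientation. The aim of the study was to find candidate RNA targets of dASF/SF2, and for the Hox genes the comparison asks whether their RNA was recovered unequally by the 2 proteins. RNA of the whole extract was not analysed here, so a difference in recovery and a difference in abundance cannot be told apart.

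The deposited values are log ratios of the 2 dyes, with base and numerator unstated, and they give no level of expression. The median of an array was subtracted from its values, and 10353 genes with complete values were compared. Across these genes the Cy5 arrays correlated at a Pearson r of 0.542 and the Cy3 arrays at 0.291. Arrays of opposite orientation correlated at 0.172 in replicate 1 and at -0.587 in replicate 2. Across replicate numbers they correlated at -0.317 (Cy5 of replicate 1, Cy3 of replicate 2) and at -0.124 (Cy5 of replicate 2, Cy3 of replicate 1). Only the pair of replicate 1 thus lay above 0. A swap could show itself either way: below 0 if the values are dye ratios, above 0 if they are ratios of 1 IP to the other. Each Hox gene is therefore given with the signs as deposited, and also with the Cy3 arrays turned in sign ("turned"), and no value is assigned to the dASF/SF2 or the GFP-NLS side. If the values are dye ratios, the contrast of the IPs cancels in the mean as deposited. If they are ratios of 1 IP to the other, that contrast cancels in the turned mean. SF2, the gene of the tagged protein, stood at -0.23 ± 0.09 (SD, n = 2 replicates) turned and at 0.057 ± 0.013 as deposited. It read -0.092 and -0.245 on the Cy5 arrays and 0.224 and 0.339 on the Cy3 arrays. An SD here is that of 2 replicate means, each an average of both orientations, so it leaves out the spread between orientations. The limma p-values given with these means leave that spread out too.

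Among the 4 Hox genes, pb had the largest absolute mean with signs as deposited and Scr the largest absolute turned mean. With signs as deposited, pb stood at -0.35 ± 0.04 (SD, n = 2), Dfd at -0.17 ± 0.13, Scr at 0.033 ± 0.017 and Antp at 0.19 ± 0.07. The turned means were 0.10 ± 0.24 for pb, 0.10 ± 0.04 for Dfd, -0.16 ± 0.05 for Scr and 0.069 ± 0.068 for Antp. After Benjamini-Hochberg adjustment over all genes, 0 of the 4 passed 0.05 in limma, turned or as deposited, where 0.0290% of all genes passed turned (3 genes) and 0% as deposited. Before adjustment, at a p under 0.05 in limma, 0 of the 4 passed turned, against 24.1% of all genes, and 2 of the 4 passed as deposited, pb and Antp, against 10.1%.

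pb, of the labial mouthparts and first in the complex among the genes measured, was negative on all 4 arrays as deposited. Its centred log ratios were -0.45 and -0.045 on the Cy5 arrays of replicates 1 and 2, and -0.308 and -0.595 on the Cy3 arrays. The Cy5 array of replicate 2 thus lay close to 0, the other 3 well below it, and the arrays of the 2 orientations overlapped. The adjusted p of the deposited mean was 0.274 in limma (unadjusted p = 0.00105), and 0.947% of the 10353 genes had a larger absolute mean. Turned, the replicates of pb differed in sign, at -0.071 and 0.275, and the adjusted p was 0.538 in limma. Its deposited mean moved to -0.21 without the Cy3 array of replicate 2.

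Dfd, which acts in the mandibular and maxillary segments, lay on the negative side on 3 of the 4 arrays as deposited. The values were -0.183 and 0.054 on the Cy5 arrays and -0.33 and -0.213 on the Cy3 arrays. As for pb, the Cy5 array of replicate 2 gave the highest value, and here the orientations did not overlap, with the Cy3 arrays below. The deposited mean had an adjusted p of 0.524 and the turned mean one of 0.394 in limma. Of all genes, 12.9% had a larger absolute deposited mean and 46.6% a larger absolute turned mean. Without the Cy3 array of replicate 2 the deposited mean was -0.10.

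Scr was the Hox gene whose sign differed between the dye orientations. It stood at -0.103 and -0.15 on the Cy5 arrays, and at 0.145 and 0.239 on the Cy3 arrays. Both arrays of one orientation were below 0 and both of the other above it, so after turning all 4 arrays were negative. The turned mean of -0.16 ± 0.05 (SD, n = 2) had an adjusted p of 0.213 in limma (unadjusted p = 0.0525), and 28.1% of all genes had a larger absolute turned mean. It kept its sign when any 1 array was left out, from -0.18 to -0.14. As deposited, the orientations nearly cancelled, and the adjusted p was 0.919 in limma.

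Antp, the thoracic gene and the last of the complex, was positive on all 4 arrays as deposited. The probe with complete values read 0.259 and 0.257 on the Cy5 arrays, and 0.218 and 0.024 on the Cy3 arrays. The first 3 values lay within a narrow band, and the Cy3 array of replicate 2 lay near 0. The deposited mean had an adjusted p of 0.451 in limma (unadjusted p = 0.0332), with 9.67% of genes at a larger absolute mean, and the turned mean one of 0.576, with 63.3% of genes larger. The other Antp probe was measured on 2 arrays only, at 0.009 on the Cy5 array of replicate 2 and at -0.208 on the Cy3 array of replicate 1, where the first probe read 0.257 and 0.218. The probes of Antp therefore disagreed, and with both averaged the deposited mean was 0.11, at an adjusted p of 0.708 in limma.

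**Figure D1:**
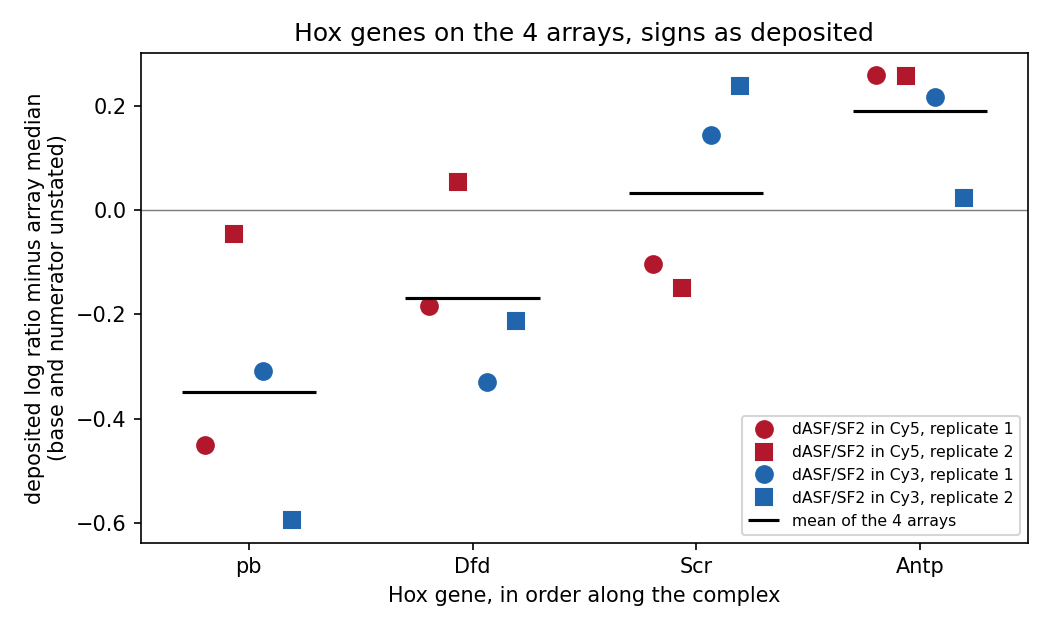
Centred log ratio (deposited value minus the array's median, base and numerator unstated) of pb, Dfd, Scr and Antp on each array, with signs as deposited; red marks dASF/SF2 in Cy5, blue dASF/SF2 in Cy3, circles replicate 1, squares replicate 2, and the bar is the mean of the 4 arrays. The bars climb from -0.35 for pb to 0.19 for Antp, while only Scr separates by colour across 0.

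A sign shared by all 4 arrays was found for 2 of the 4 Hox genes as deposited, pb on the negative and Antp on the positive side, against 13.1% of all genes. For Antp this rests on the probe with complete values, and its other probe read -0.208 on the Cy3 array of replicate 1. Turned, a shared sign was found for 1 of the 4, Scr, against 29.5% of all genes. The plot of turned against deposited means shows the same split: pb and Antp lie apart along the deposited axis, and Scr lies off the others along the turned axis.

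**Figure D2:**
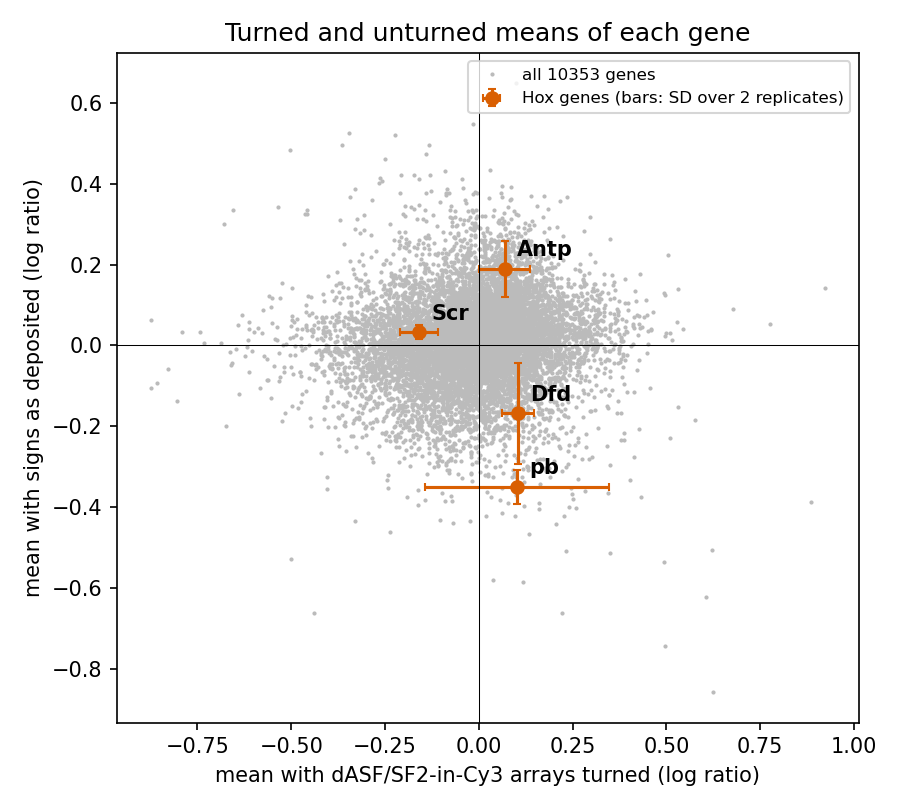
Mean log ratio of each of 10353 genes (grey) with the dASF/SF2-in-Cy3 arrays turned (horizontal) and with signs as deposited (vertical); the 4 Hox genes are orange, with bars of 1 SD over 2 replicates. pb, at -0.35, lies at the lower edge of the grey cloud, with a wide horizontal bar, and Dfd, Scr and Antp lie within the cloud.

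Ordered by their deposited means, the 4 genes stood as they do along the complex, pb lowest, then Dfd, Scr and Antp. The order was seen after the values were known and is given as a description. Since the meaning of the signs is unsettled, it is not read as unequal recovery by the 2 proteins. The order held in both replicates, with -0.379, -0.257, 0.021 and 0.239 in replicate 1 and -0.32, -0.08, 0.045 and 0.141 in replicate 2. It also held in each of 11 alternative fits, among them those without 1 array, although some of the others leave these means as they are. All of these fits use the same 4 arrays or part of them. Without the Cy5 array of replicate 2, Scr and Antp were nearly equal, at 0.130 and 0.1312. On single arrays it held on 1 of 4, the Cy5 array of replicate 1, while on each of the others neighbouring genes were exchanged or, for Scr, moved to the lowest place. All 6 pairs of Hox genes had deposited replicate values that did not overlap, where 42.1% of all pairs of genes had such values. The smallest of these differences was that of Scr minus Antp, -0.16 ± 0.09 (SD, n = 2), and the largest that of pb minus Antp, -0.54 ± 0.11.

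Turned, the order of the complex was absent from both replicates. Scr was lowest in each, and the replicate values of Scr did not overlap those of pb, Dfd or Antp, which makes 3 of the 6 pairs, against 57.8% of all pairs of genes. The turned values of pb, Dfd and Antp overlapped with one another, so no order is given among them. The difference of Dfd minus Scr was 0.26 ± 0.09 (SD, n = 2) and that of Scr minus Antp -0.23 ± 0.12.

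The other genes of the Antennapedia complex were next set beside the homeotic ones, in chromosomal order as RefSeq gives it for the Release 6 assembly. The list held 12 genes: the segmentation and early patterning genes zen, zen2, bcd and ftz, the immunoglobulin gene Ama and 7 Ccp84A cuticle genes. Of 8 with complete values, 7 were positive and 1 negative as deposited, with a median of 0.10 against 0.014 for all genes and -0.068 for the 4 Hox genes. Over all genes, 5755 were positive and 4588 negative as deposited, and 5207 were positive and 5142 negative turned. A shared sign on all 4 arrays as deposited was found for 5 of the 8, 4 positive and 1 negative, against 13.1% of all genes. On single arrays some of these values lay near 0, as for Ccp84Ag (0.005) and Ama (0.022). Turned, a shared sign was found for 0 of the 8, against 29.5% of all genes.

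ftz, a pair-rule gene that lies between Scr and Antp, read 0.443 and 0.222 on the Cy5 arrays and 0.223 and 0.211 on the Cy3 arrays. All 4 arrays were thus well above 0, and its deposited mean of 0.27 ± 0.08 (SD, n = 2) exceeded that of its neighbour Antp. Ccp84Aa, a cuticle gene that lies next to pb, was at -0.405 and -0.145 on the Cy5 arrays and at -0.204 and -0.097 on the Cy3 arrays, negative throughout like pb, with a deposited mean of -0.21 ± 0.13. The adjusted p was 0.388 for ftz and 0.436 for Ccp84Aa in limma, so neither passed, although at an unadjusted p under 0.05 these were the 2 of the 8 that passed as deposited, against 10.1% of all genes. Turned, the 8 genes kept between -0.062 and 0.058, Ccp84Aa being the lowest and ftz and Ccp84Ae (0.058 ± 0.025) the highest, 5 positive and 3 negative, and 0 passed 0.05 before adjustment in limma, against 24.1% of all genes.

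**Figure D3:**
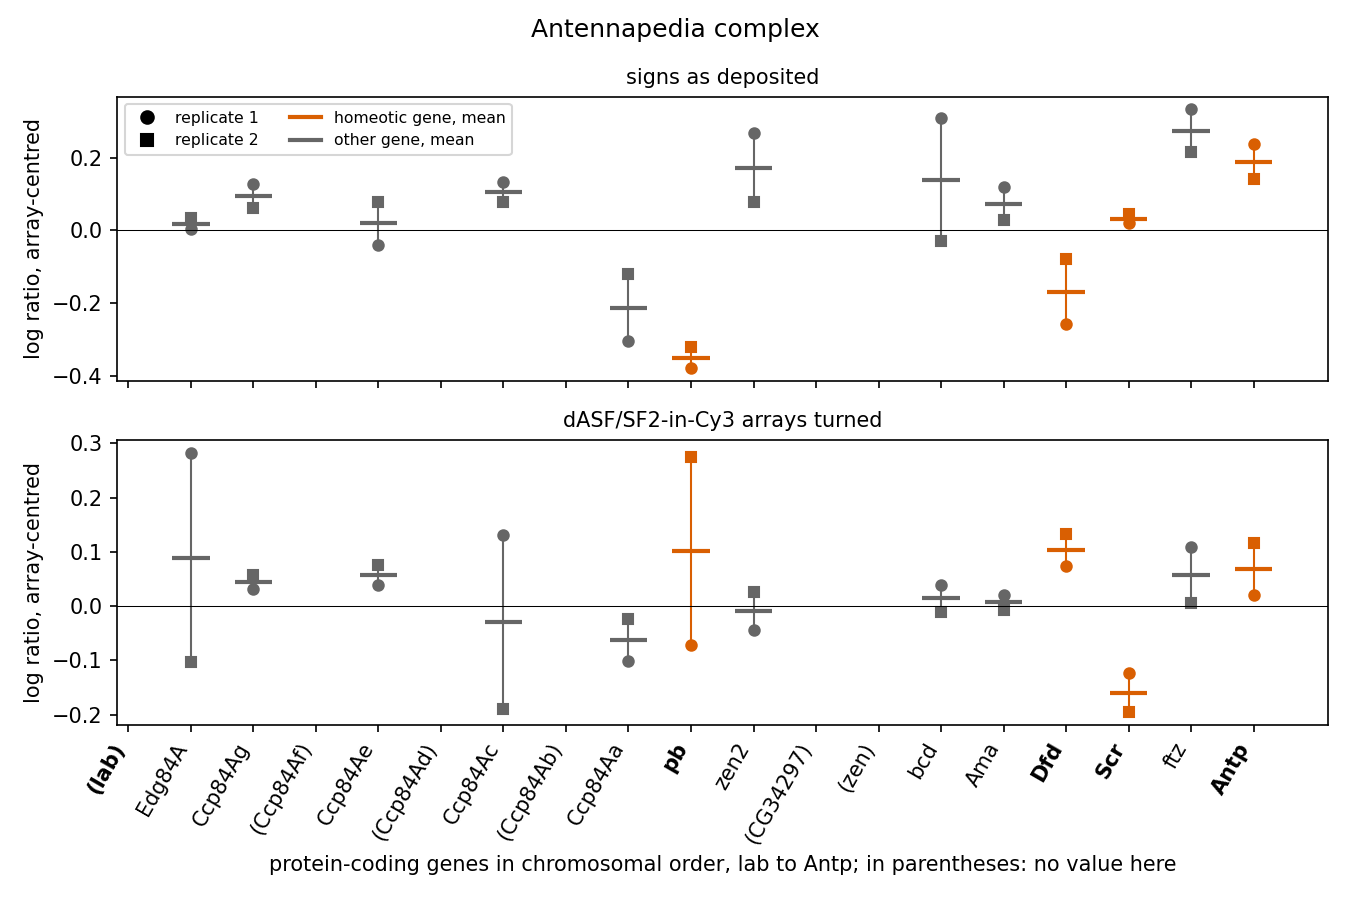
Array-centred log ratio of the protein-coding genes from lab to Antp in chromosomal order, with signs as deposited (upper panel) and with the dASF/SF2-in-Cy3 arrays turned (lower panel); circles and squares are replicates 1 and 2, bars their mean, orange the homeotic genes, and genes in parentheses have no value here. In the upper panel pb and its neighbour Ccp84Aa lie lowest and ftz and Antp at the right end highest, and in the lower panel Scr lies lowest.

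Proteins that work with Hox factors were covered thinly. Of 6 cofactor and partner genes listed, 3 were measured on all arrays, and the TALE homeodomain cofactors exd and hth were not among them. The zinc finger gene tsh, which acts with the trunk Hox genes, had a turned mean of -0.16 ± 0.10 (SD, n = 2) close to that of Scr, its paralog tio 0.064 ± 0.058, and disco-r, a gene of head identity, 0.10 ± 0.13. As deposited, tio stood highest at 0.20 ± 0.15. Of 11 genes known as Hox targets, 8 were measured, 4 positive and 4 negative both turned and as deposited, with a turned median of 0.0019. The largest absolute turned means among them were those of salm (-0.20 ± 0.29), a zinc finger gene of wing and trachea, bs (-0.13 ± 0.08), the fly serum response factor, and Con (0.12 ± 0.27), the cell adhesion gene connectin. For both lists 0 members passed an adjusted p of 0.05 in limma, and at an unadjusted p under 0.05 the count was 1 for the cofactors, tio as deposited, and 0 for the targets, against 24.1% of all genes turned and 10.1% as deposited.

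Regulators of the Hox genes are given by group, and the difference between the groups was not tested. Of 15 measured trithorax group genes, 12 had negative turned means and 3 positive ones, with a list median of -0.13 against 0.0010 for all genes. A negative sign on all 4 turned arrays was found for 7 of them and a positive one for 1, against 29.5% of all genes with 1 sign in either direction. As deposited 9 were positive and 6 negative, with a median of 0.018 against 0.014 for all genes. Of all genes, 5207 had positive and 5142 negative turned means, and 5755 had positive and 4588 negative deposited means. Of 14 measured Polycomb group genes, 8 were positive and 6 negative when turned, with a median of 0.036, 4 of them positive and 2 negative on all 4 turned arrays. As deposited 10 were positive and 4 negative, with a median of 0.054. In limma's moderated test 0 members of either group passed an adjusted p of 0.05, turned or as deposited. At an unadjusted p under 0.05 the turned counts were 8 of 15 (7 negative) and 5 of 14 (4 positive), against 24.1% of all genes, and the deposited counts 1 of 15 (positive) and 2 of 14 (both negative), against 10.1%.

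trx, the histone methyltransferase gene that names the group, read -0.43 and -0.326 on the Cy5 arrays and 0.139 and 0.688 on the Cy3 arrays. The orientations lay on opposite sides of 0, as for Scr, and the turned mean was -0.40 ± 0.16 (SD, n = 2). brm, the ATPase of the Brahma chromatin remodelling complex, was at -0.55 and -0.319 on the Cy5 arrays and at 0.065 and 0.405 on the Cy3 arrays, a turned mean of -0.33 ± 0.04. The adjusted p was 0.0689 for each of them in limma. kis, a chromodomain remodeller gene with 2 probes, read 0.114 and -0.232 on the Cy5 arrays and 0.4745 and 0.888 on the Cy3 arrays. Its turned mean was -0.37 ± 0.27, though the Cy5 array of replicate 1 was positive. Its deposited mean was 0.31 ± 0.02, an SD that leaves out the spread between orientations.

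In the Polycomb group the 3 largest absolute turned means were positive. They belonged to Asx, part of a histone deubiquitinase, at 0.25 ± 0.08 (SD, n = 2), esc, a subunit of Polycomb repressive complex 2, at 0.22 ± 0.23, and Pc, the founding chromodomain protein, at 0.21 ± 0.15. Asx and esc were positive on all 4 turned arrays. Pc had -0.136 and 0.066 on the Cy5 arrays and -0.347 and -0.582 on the Cy3 arrays, and its deposited mean was -0.25 ± 0.01. The adjusted p of the turned means was 0.102 for Asx, 0.204 for esc and 0.166 for Pc in limma.

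Homeobox genes outside both the Hox series and the Antennapedia complex formed a further list. Of 65 listed, 50 were measured, with turned values from -0.21 to 0.50 and deposited values from -0.23 to 0.21, so that pb, at -0.35, lay below all 50 as deposited. Turned, 34 were positive and 16 negative, with a median of 0.040, and at a p under 0.05 before adjustment in limma 12 positive and 1 negative gene passed, 13 of 50, against 24.1% of all genes. As deposited, 31 were positive and 19 negative, and 2 of 50 passed, against 10.1%. All genes divided into 5207 positive and 5142 negative turned, and into 5755 positive and 4588 negative as deposited. After adjustment 0 of the 50 passed 0.05 in limma. The largest absolute turned means were those of ap, the LIM-homeodomain selector of the dorsal wing, at 0.50 ± 0.19 (SD, n = 2), oc (orthodenticle), of the anterior head and the ocelli, at 0.30 ± 0.07, and Ptx1, a bicoid-class gene, at 0.28 ± 0.10, with adjusted p-values of 0.0681, 0.0790 and 0.0866 in limma. The 4 Hox genes had a turned median of 0.085 and lay inside the turned range of these genes. That median was -0.056 without the Cy3 array of replicate 1 and 0.0029 without the Cy3 array of replicate 2.

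**Figure D4:**
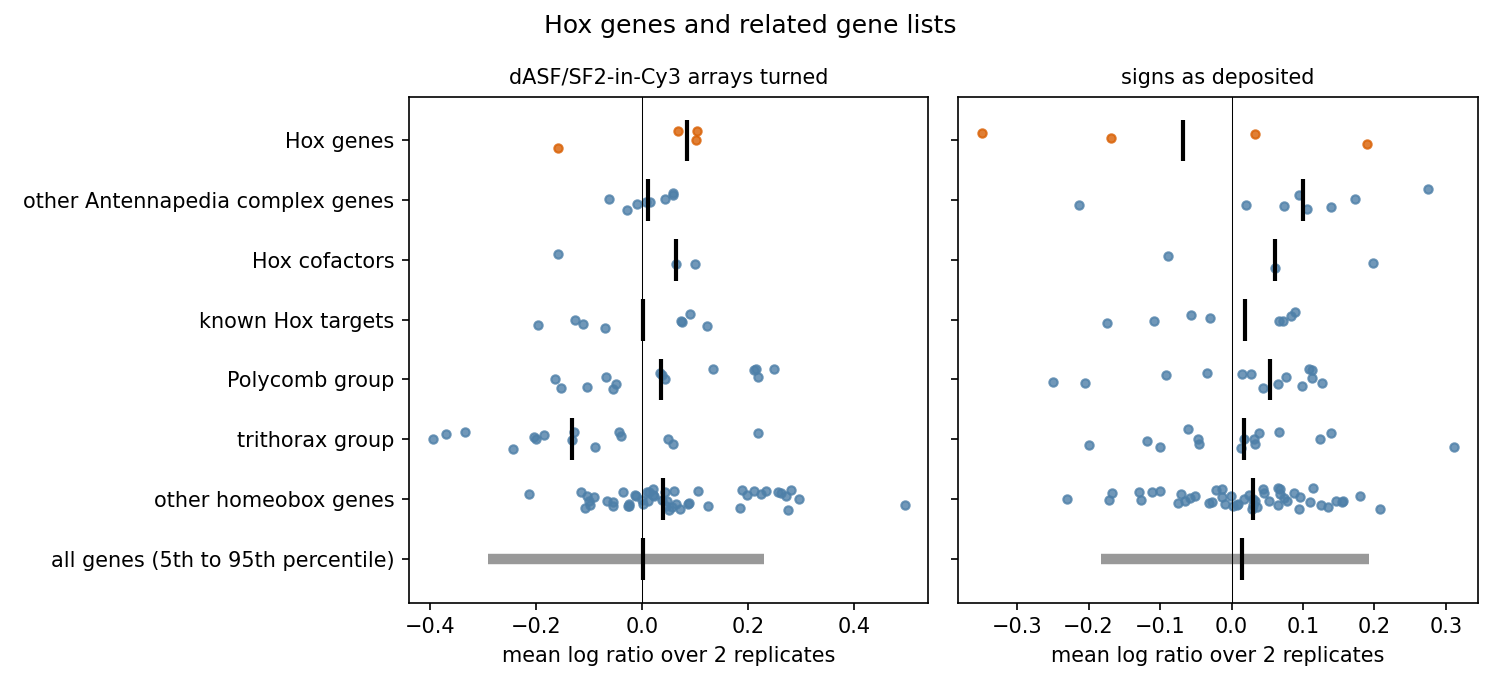
Mean log ratio over 2 replicates for each measured gene of the Hox series (orange) and of 6 related lists (blue), turned (left) and with signs as deposited (right); black bars are list medians, and the grey bar spans the 5th to the 95th percentile of all 10353 genes. The trithorax group lies to the left when turned, with a median of -0.13, but not as deposited, with one of 0.018, and pb lies to the left of every other plotted gene as deposited.

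The genes most like Scr, the Hox gene with the largest absolute turned mean, were found by the Euclidean distance over the 4 arrays. They were PMCA, a plasma membrane calcium pump, at a distance of 0.0277, Prosalpha2, a proteasome core subunit, at 0.0293, and CG7556, at 0.0305. PMCA had a turned mean of -0.16 ± 0.04 (SD, n = 2), Prosalpha2 -0.15 ± 0.04 and CG7556 -0.15 ± 0.05. With 4 arrays and 10353 genes, such close neighbours describe the values and nothing more.

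Markers of tissues in the anterior part of the larva varied beside the Hox genes. Turned, the means were positive for 4 of 7 measured eye disc markers, 2 of 4 neuronal, 4 of 4 glial, 2 of 8 salivary gland, 0 of 3 fat body, 0 of 3 muscle and 2 of 5 haemocyte markers. Over all genes, 5207 turned means were positive and 5142 negative. As deposited, the salivary gland markers had a median of -0.16, with 2 positive and 6 negative. The neuronal markers had one of 0.12, with 3 positive and 1 negative. All genes had a deposited median of 0.014, with 5755 positive and 4588 negative. The medians of the other marker lists lay between -0.022 and 0.046. The part of these tissues in the Hox values was not tested. Since a ratio carries no level, the presence of a tissue could not be checked from its markers.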

How the data were processed

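The authors deposited 1 log ratio per probe and array for the 4 two-colour arrays. The base, the numerator, the corrections and the tools behind it were not given in the sources used here. A value of -10000 was read as missing (73 cells), and the arrays held 13815 to 15330 measured probes of 15744. Probes were named from GEO's platform annotation (13147 with 1 symbol, 99 with several), of which 12519 matched RefSeq (Release 6) by Entrez identifier and 0 symbols changed.

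Array medians were subtracted, and those probes of a gene that had values on all 4 arrays were averaged. The arrays of a replicate number were averaged as a dye-swapped pair, and the 2 replicates were tested against 0 with limma 3.58.1 in R 4.3.3 (lmFit, eBayes; Benjamini-Hochberg over 10353 genes; threshold 0.05). The sample titles number the arrays within each orientation and do not state that same-numbered arrays share extracts. The pairing is thus an assumption on which each SD and p-value rests. The deviations of same-numbered arrays correlated at -0.036 turned. Nothing states that replicates were separate cultures, so the p-values reflect only the spread of replicate means, possibly a technical one. The spread between the orientations within a replicate number does not enter them. The correlation within replicate numbers that limma estimated was below 0, at -0.355 turned and -0.476 as deposited. Spot intensities were not used, and precision is limited by how few arrays there are.

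The Hox genes and the related lists were chosen with earlier results of these data known. Named genes were all Hox genes, SF2, the 3 members of each list with the largest absolute turned mean, and the 3 genes nearest to the Hox gene of largest absolute turned mean. Alternatives changed the scaling, centring, completeness, zeros, probe summary, block, dye term or array set. Figures were drawn with matplotlib 3.10.9.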

Additional observations from a re-analysis of the deposited data

How the results depend on the processing

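Under each of the 12 alternatives run for turned values (11 as deposited, where probes were not tested singly), 0 Hox genes passed an adjusted p of 0.05 in limma. The lowest adjusted p any reached was 0.0740, for Scr turned with the replicate block. The count over all genes moved far more. For turned values it was 3, and became 0 with arrays scaled to 1 spread, with 1 array per replicate sufficing, alone or together with exact zeros read as missing, and with probes tested singly, 37 without centring, 41 with the median of a gene's probes, 180 with 4 arrays and a dye term, and 1364 with the replicate block, whose estimated correlation was -0.355. Leaving out each array in turn gave 0 to 418 genes. As deposited it was 0, and became 4 with scaled arrays and 0 to 23 without single arrays, with 0 under the replicate block. The cause was not tested. Of 88 Hox gene values under alternatives, 81 kept their direction and 7 changed it, all when 1 array was left out. The 81 include values that could not change, since the replicate block, the dye term and the median of probes left each gene's mean as it was. Turned, pb was at -0.088 and -0.058 without the Cy3 array of replicate 1 or 2. Dfd was at -0.025 turned without the Cy3 array of replicate 1. Antp was at -0.051 and -0.0017 turned without the Cy5 array of replicate 1 or 2. As deposited, Scr was at -0.029 and -0.065 without the Cy3 array of replicate 1 or 2. Over the fits without 1 array the turned means ranged from -0.088 to 0.29 for pb, -0.025 to 0.23 for Dfd and -0.051 to 0.19 for Antp. The deposited means ranged from -0.49 to -0.21 for pb and from 0.13 to 0.25 for Antp. With 1 array per replicate sufficing, the deposited mean of Antp was lower, at 0.1052, and at 0.1023 with exact zeros also read as missing. With no spot intensities, signal over background could not set a limit.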

Other observations

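Edg84A, a cuticle gene of the pupa that lies next to lab, differed between the replicates when turned, at 0.283 and -0.103, and stood at 0.019 ± 0.021 (SD, n = 2) as deposited. It is in no list and was named after its values were seen. The cuticle genes Ccp84Ag and Ccp84Ac had deposited means of 0.095 ± 0.047 and 0.11 ± 0.04, on the other side of 0 from Ccp84Aa. Of the early patterning genes of the complex, zen2 stood at 0.17 ± 0.13 and bcd at 0.14 ± 0.24 as deposited. These 4 genes were likewise named after their values were seen.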
